A study of Mus musculus with 24 samples.

Results

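The growth factors of the EGF family and the ERBB receptors that bind them were followed through 24 Affymetrix whole-genome mouse arrays. The genes were chosen by name: the ligands Egf, Areg, Btc, Ereg, Hbegf, Tgfa and Epgn and the receptors Egfr, Erbb2 and Erbb3, 10 genes in all. Of these, 9 had a probe set of their own name, 20 probe sets together, of which 14 passed the filter on low signal. Areg had none under its name and is not analysed here. Egf had 1, which passed the low band in 2 arrays only and was not tested. The other 8 genes are among the 13485 tested. Tumour cells came from 5 mammary adenocarcinomas, A to E, of C57BL6/J mice with the genotype Apc+/1572T, in which 1 copy of Apc, a brake on Wnt signalling, is truncated. Normal cells came from 3 pools, F to H, of mammary glands of C57BL6/J mice with the genotype Apc+/+. The animals were kept free of specific pathogens, received no treatment named in the labels, and no age is stated. From each tumour and each pool 3 populations of 10000 sorted cells were profiled. Lin-CD29hiCD24+ cells are the gate the series uses for stem cells, Lin-CD29+CD24+ cells are its gate for more differentiated cells, and Lin- cells are the lineage-depleted cells as a whole. Each tumour population has 5 arrays and each normal population 3. Tumour and normal cells differ in genotype and in being a tumour, which cannot be told apart, since Apc+/1572T glands without a tumour are not among the groups.

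ERBB receptors are tyrosine kinases of the cell surface that pair up when a ligand binds and pass the signal to the ERK and AKT kinases. Most EGF family ligands are made as membrane-bound precursors and are freed by proteases such as ADAM17. ERBB2 has no ligand of its own and ERBB3 has little kinase activity, so these receptors act mainly in pairs, while EGFR binds every ligand named above. In the mammary gland EGFR signalling takes part in the outgrowth of ducts, and the gland's outer basal cells and inner luminal cells carry different sets of receptors and ligands.

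The promoters of 4 members are shown because these genes moved in pairs across the arrays, Btc with Epgn and Egfr with Tgfa. Epgn, Ereg, Areg and Btc also lie in that order on chromosome 5, with no other protein-coding gene between them in the RefSeq annotation. Each sequence is from RefSeq on build GRCm38.p6 and runs from 250 bases before to 50 bases after the start of the transcript, 5′ to 3′ on the gene's strand. The windows are chr5:91402945-91403244 on the minus strand for Btc, chr5:91027267-91027566 on the plus strand for Epgn, chr11:16751953-16752252 on the plus strand for Egfr and chr6:86194972-86195271 on the plus strand for Tgfa. Capitals mark the letters of a motif found on either strand.
Btc: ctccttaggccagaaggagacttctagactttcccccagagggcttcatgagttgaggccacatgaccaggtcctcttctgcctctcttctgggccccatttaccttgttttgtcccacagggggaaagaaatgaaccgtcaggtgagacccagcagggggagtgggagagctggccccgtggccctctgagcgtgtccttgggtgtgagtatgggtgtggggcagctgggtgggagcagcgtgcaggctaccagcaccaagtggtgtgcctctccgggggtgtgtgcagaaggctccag
Epgn: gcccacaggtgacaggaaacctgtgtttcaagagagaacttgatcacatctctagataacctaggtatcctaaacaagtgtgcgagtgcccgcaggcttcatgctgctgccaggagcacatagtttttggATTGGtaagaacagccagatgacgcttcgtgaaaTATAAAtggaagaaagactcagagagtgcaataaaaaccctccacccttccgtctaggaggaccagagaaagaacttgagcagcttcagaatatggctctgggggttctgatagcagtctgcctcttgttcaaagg
Egfr: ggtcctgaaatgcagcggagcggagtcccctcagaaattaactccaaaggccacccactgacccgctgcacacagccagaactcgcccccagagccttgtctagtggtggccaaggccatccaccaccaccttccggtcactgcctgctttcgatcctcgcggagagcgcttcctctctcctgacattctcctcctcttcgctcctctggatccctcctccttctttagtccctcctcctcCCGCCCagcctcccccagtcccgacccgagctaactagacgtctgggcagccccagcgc
Tgfa: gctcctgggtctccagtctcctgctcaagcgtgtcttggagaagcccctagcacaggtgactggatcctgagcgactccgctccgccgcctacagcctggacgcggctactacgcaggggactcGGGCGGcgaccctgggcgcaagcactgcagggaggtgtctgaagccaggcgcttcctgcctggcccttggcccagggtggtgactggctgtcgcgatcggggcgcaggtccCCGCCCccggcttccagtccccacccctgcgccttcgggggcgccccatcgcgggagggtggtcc
The motifs searched were the TATA box (TATAAA), the GC box (GGGCGG), the CCAAT box (CCAAT), an AP-1 site (TGANTCA), a TCF/LEF site (CTTTGAT) and a STAT5 site (TTCNNNGAA). They occur in 13.6%, 35.7%, 37.4%, 7.81%, 3.73% and 8.30% of 32851 mouse promoters of the same length, in that order. Epgn held 1 TATA box, starting 86 bases before the transcript start, and 1 CCAAT box. Egfr held 1 GC box and Tgfa held 2, and no marked motifs overlap. None of the 6 was found in the Btc window. The GC content was 60.3% for Btc and 47.3% for Epgn, against 62.3% for Egfr and 70.7% for Tgfa and a median of 52.7% over all promoters. The number of CpG dinucleotides was 5 in Btc and 5 in Epgn, 15 in Egfr and 24 in Tgfa, against a median of 7. The ligand pair of chromosome 5 thus had fewer CpG dinucleotides than the median promoter and the receptor Egfr and its ligand Tgfa had more. A match is a description of letters in this window.

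All values are the deposited log2 signals, so a difference of 1 is a 2-fold difference, and levels of different probe sets are not set against each other. About 40% of all values lay at or below 2.83, called the low band, where signal is hard to tell from background. In tumours both gates carried basal genes, but not evenly. The mean over 8 of them was 9.23 to 11.02 in the CD29hiCD24+ gate, against 12.87 to 13.15 in the same gate of pools. In the CD29+CD24+ gate it was 8.73 to 9.15, against 3.27 to 3.58 in pools. In tumour CD29hiCD24+ cells Acta2, Myh11, Cnn1 and Oxtr were lower than in pools, and Krt5 and Trp63 were higher. In tumour CD29+CD24+ cells Krt5, Krt14, Krt17 and Trp63 averaged 13.03 to 14.64 and Acta2 8.54. Myh11, Cnn1 and Oxtr averaged 3.24, 2.30 and 2.67 there, close to or in the low band. The mean over 9 luminal genes was 6.77 to 8.14 against 8.49 to 10.59 in the first gate and 8.07 to 11 against 12.28 to 12.45 in the second. Keratinocyte genes marked the tumours, with means of 8.07 to 11.41 over both gates, against 4.05 to 5.62 in pools. Normal CD29hiCD24+ arrays also carried endothelial genes, with means over 7 genes of 9.96, 7.08 and 7.82 in pools F, G and H, and the array of pool F had a leukocyte mean of 7.86 against 3.21 and 3.34 in G and H. Apc itself read 8.06 to 11.68 over the tumour arrays and 11.53 to 13.48 over the normal arrays, and whether its probe set reaches the mutated stretch was not analysed here. In sorted populations of this kind fewer cells of a type and less RNA per cell cannot be told apart.

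Most members differed between the gates of the normal gland, and 1 did between the gates of tumours. Between CD29hiCD24+ and CD29+CD24+ cells of tumours, 0 members were higher and 1, Erbb3, was lower, beside 2.25% of all genes higher, 1.94% lower and 4.19% called either way in limma. At an unadjusted p under 0.05 the count of members was 1 higher and 2 lower. The 4.19% are 565 genes, against 1817 with the tumour or pool as a block, which changed no member call. Between the gates of normal glands, Egfr, Ereg and Tgfa were higher in CD29hiCD24+ cells and Erbb3, Erbb2, Btc and Epgn were lower, which leaves Hbegf without a call in this fit. These 3 higher and 4 lower members of 8 stand beside 21.3% of all genes higher, 25.3% lower and 46.6% called. The test of tumour against normal in this gate difference was passed by 6 members, 3 of them more positive in tumours (Epgn, Btc and Erbb3) and 3 more negative (Ereg, Tgfa and Egfr), beside 22.2% of genes in the first direction, 19.8% in the second and 42% in all. The median log2 difference of the 8 members was -0.39 in tumour gates, -0.54 in normal gates and 0.54 for tumour minus normal, against 0, -0.03 and 0.04 over all genes.

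**Figure D1:**
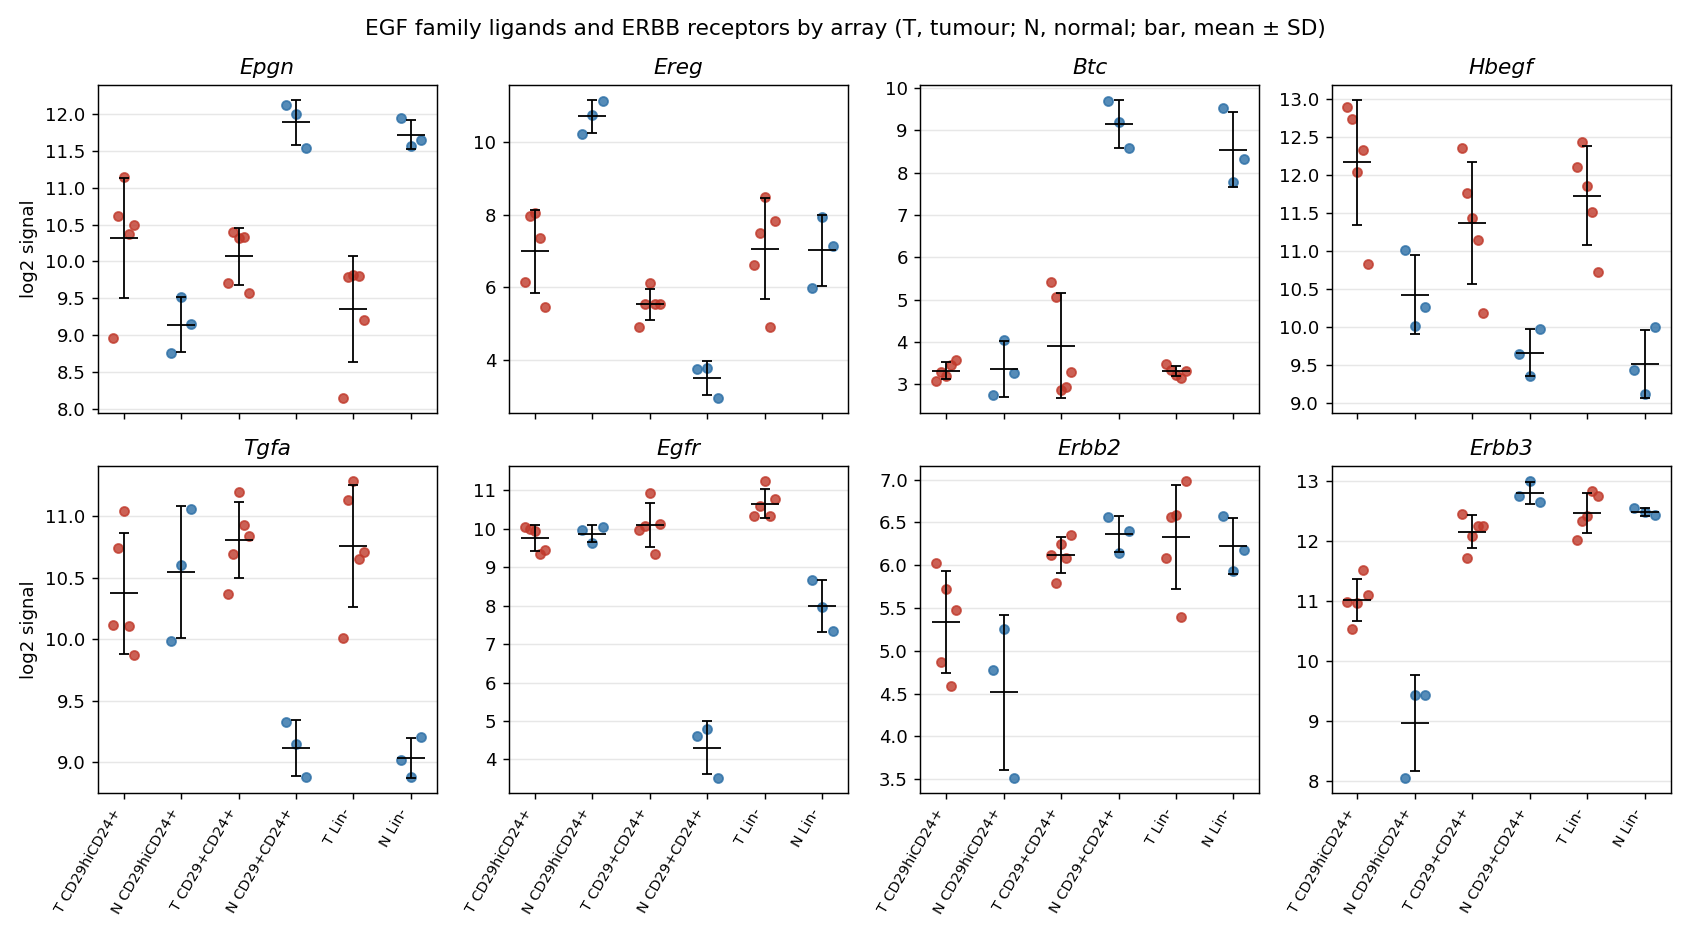
Log2 signal (y axis) of the 8 tested members in every array, by population and tissue, with T for tumour and N for normal; bars give the mean ± SD (n = 5 tumours, n = 3 pools). Egfr lies between 3.51 and 4.80 in the normal CD29+CD24+ arrays and at 7.34 or above in all other arrays, and Btc is over 7 only in normal CD29+CD24+ and normal Lin- arrays.

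Between tumour and normal cells of one population, 3 members were higher and 1 was lower in CD29hiCD24+ cells, beside 15.6% of genes higher, 22.9% lower and 38.6% called. In CD29+CD24+ cells 4 were higher and 2 lower, beside 16.4%, 27.1% and 43.5% in the same order. In Lin- cells 3 were higher and 2 lower, beside 13.9%, 26.6% and 40.6%. Calls in either direction were thus common among all genes. The member medians were 0.39, 0.72 and 0.08 in CD29hiCD24+, CD29+CD24+ and Lin- cells, against -0.01, -0.01 and -0.08 over all genes. These comparisons share arrays with the gate comparisons, so they are not independent of them.

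**Figure D2:**
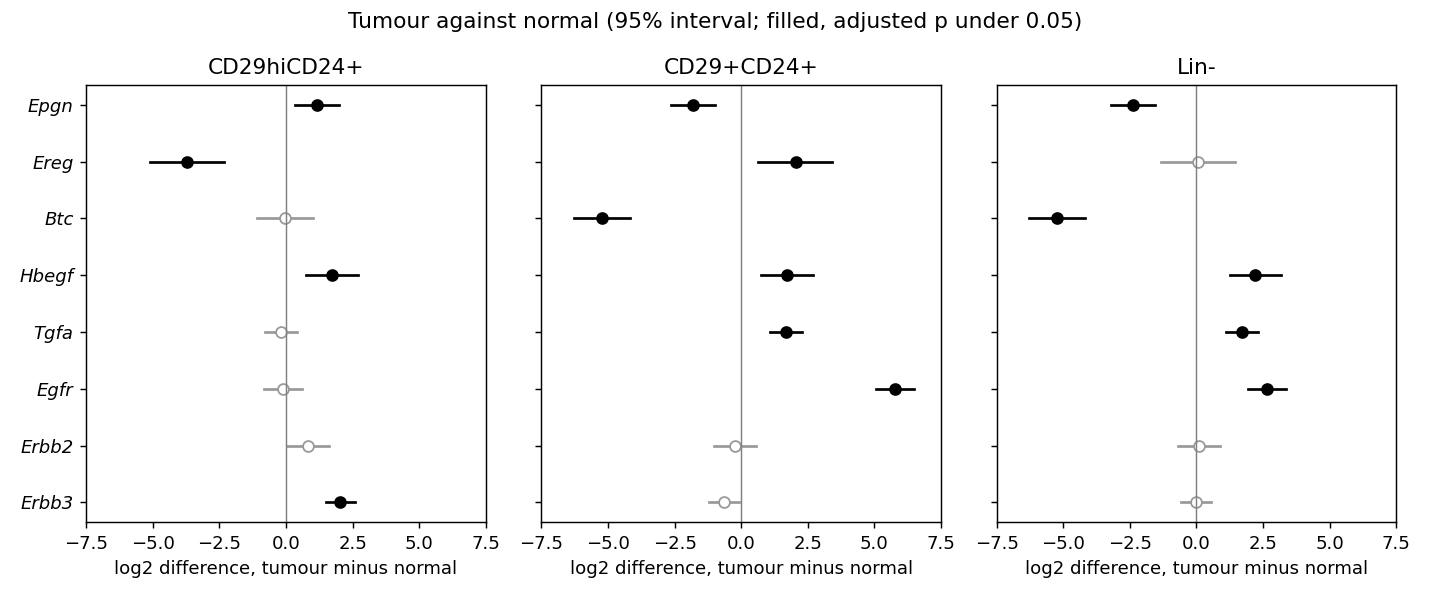
Log2 difference, tumour minus normal (x axis), with its 95% interval for the 8 members in each population; filled points passed an adjusted p of 0.05. Egfr has the highest difference in CD29+CD24+ cells (5.78) and Btc the lowest in CD29+CD24+ and Lin- cells (-5.24 in both), while in CD29hiCD24+ cells Ereg is lowest (-3.72).

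Among the ligands, Btc (betacellulin), which binds EGFR and ERBB4, had the lowest tumour against normal difference. In CD29+CD24+ cells it read 5.42, 5.07, 2.86, 2.93 and 3.30 in tumours A to E, against 9.70, 9.19 and 8.57 in pools F to H. In Lin- cells it read 3.47, 3.34, 3.23, 3.16 and 3.32 in the tumours, against 9.52, 7.78 and 8.32 in the pools. All tumours were far below all pools in both populations, and most tumour values lay just above the low band. The difference was -5.24 ± 0.50 (SE) in CD29+CD24+ cells (limma, adjusted p = 3.34e-08) and -5.24 ± 0.50 in Lin- cells (adjusted p = 5.15e-08), a 37.7-fold lower signal in each. In CD29hiCD24+ cells Btc was low in both tissues, at 3.08 to 3.58 in tumours and 2.75 to 4.05 in pools, and did not pass the test (-0.03 ± 0.50, adjusted p = 0.966). Tumours A and B, whose CD29+CD24+ arrays kept the most Btc, were also those with the highest luminal means there, 11 and 10.36 against 8.07 to 8.25 in tumours C to E and 12.28 to 12.45 in the pools, and the part of luminal content in the Btc signal was not tested. The second Btc probe set gave the same calls, with -3.18 ± 0.24 in CD29+CD24+ and -2.53 ± 0.24 in Lin- cells. It did not set tumours A and B apart in CD29+CD24+ cells, where it read 3.53, 3.26, 3.19, 3.25 and 3.42 in tumours A to E.

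Epgn (epigen), a ligand of EGFR encoded beside Ereg and Btc, was lower in the same tumour populations as Btc but lay well above the low band. Its CD29+CD24+ signal was 9.71, 10.40, 10.32, 10.33 and 9.57 in tumours A to E, against 12.12, 12 and 11.54 in pools F to H. In Lin- cells it read 8.15, 9.79, 9.81, 9.80 and 9.21 in tumours, against 11.94, 11.57 and 11.65 in pools. No tumour reached the lowest pool in either. The differences were -1.82 ± 0.40 (adjusted p = 0.000787) and -2.37 ± 0.40 (adjusted p = 6.32e-05). In CD29hiCD24+ cells Epgn read 8.96, 10.62, 11.14, 10.37 and 10.50 in tumours, against 8.76, 9.51 and 9.15 in pools, so 4 of 5 tumours were above every pool and tumour A was not. That difference, 1.18 ± 0.40, passed at an adjusted p of 0.0229 and lost its call without tumour B, C or E, without pool F or H, and without the pool F array alone (0.99 ± 0.46, adjusted p = 0.108).

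Ereg (epiregulin), which binds EGFR and ERBB4, was the ligand most tied to the normal CD29hiCD24+ gate. In CD29hiCD24+ cells it read 6.16, 7.96, 8.04, 7.37 and 5.45 in tumours A to E, against 10.24, 10.76 and 11.15 in pools F to H. Its CD29+CD24+ signal was 4.91, 5.54, 6.13, 5.55 and 5.54 in tumours, against 3.75, 3.79 and 2.96 in pools. These pool values lay just above the low band. The groups did not overlap in either gate, and they lay in opposite order. Tumours had 13.2-fold less Ereg in CD29hiCD24+ cells (-3.72 ± 0.66, adjusted p = 0.000148) and 4.10-fold more in CD29+CD24+ cells (2.04 ± 0.66, adjusted p = 0.0167). The second of these lost its call without pool H (1.76 ± 0.81, adjusted p = 0.100) and with the range of the running numbers in the sample descriptions as a term (1.78 ± 0.84, adjusted p = 0.0992). In Lin- cells Ereg ranged from 4.91 to 8.49 in tumours and from 5.98 to 7.93 in pools, a difference of 0.05 ± 0.66 with an interval of -1.33 to 1.44. Endothelial genes were high in the same normal CD29hiCD24+ arrays in which Ereg was high. Their means were 9.96, 7.08 and 7.82 in pools F to H, and the pool F array also had a leukocyte mean of 7.86. The part of these genes in the Ereg difference was not tested.

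Hbegf, the heparin-binding ligand of EGFR and ERBB4, was the one member called higher in tumours in all 3 populations by the probe set that stood for its gene. The third Egfr probe set, described below, was also called higher in all 3. In CD29hiCD24+ cells Hbegf read 12.90, 12.74, 12.04, 12.33 and 10.83 in tumours A to E, against 11.01, 10.01 and 10.27 in pools F to H. Its CD29+CD24+ signal was 12.35, 11.76, 11.43, 11.14 and 10.19 in tumours, against 9.65, 9.36 and 9.98 in pools. In Lin- cells it read 12.11, 12.44, 11.86, 11.51 and 10.73 in tumours, against 9.44, 9.12 and 10 in pools. Tumour E was the lowest tumour in each population, and in CD29hiCD24+ cells it lay below pool F. The differences were 1.73 ± 0.46 (adjusted p = 0.00522), 1.71 ± 0.46 (adjusted p = 0.00478) and 2.21 ± 0.46 (adjusted p = 0.000617). The sample descriptions carry running numbers that fall into 3 ranges, and tumour E is the only tumour in the range of the pools. With the range as a term in the fit, Hbegf was no longer called in CD29hiCD24+ (0.56 ± 0.27, adjusted p = 0.102) or CD29+CD24+ cells (0.54 ± 0.27, adjusted p = 0.125), and in Lin- cells it was (1.04 ± 0.27, adjusted p = 0.00501). What the ranges stand for is not stated. The second Hbegf probe set gave the same calls as the first without that term (1.93 ± 0.44, 1.93 ± 0.44 and 2.07 ± 0.44).

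Tgfa, a ligand of EGFR, was higher in the tumour populations in which Btc and Epgn were lower. Its CD29+CD24+ signal was 10.37, 10.69, 11.20, 10.93 and 10.84 in tumours A to E, against 9.33, 9.15 and 8.88 in pools F to H. In Lin- cells it ranged from 10.01 to 11.29 in tumours and from 8.88 to 9.21 in pools. Every tumour was above every pool. The differences were 1.69 ± 0.29 (adjusted p = 7.22e-05) and 1.72 ± 0.29 (adjusted p = 7.08e-05), and tumour E alone lay 1.72 and 1.67 above the mean of the pools. In CD29hiCD24+ cells Tgfa read 9.87 to 11.04 in tumours and 9.99 to 11.06 in pools (-0.17 ± 0.29, adjusted p = 0.681). A second Tgfa probe set lay near the low band, between 2.56 and 3.63, and gave no call.

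Egf itself was at the low band almost everywhere. Its probe set read 2.38 to 2.58 in 21 of the 24 arrays, and the other 3 were those of tumour C, with 7.15 in CD29hiCD24+, 3.65 in CD29+CD24+ and 2.68 in Lin- cells. One tumour therefore carried an Egf signal, and no difference between groups was tested.

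Of the receptors, Egfr had the largest tumour against normal difference. In CD29+CD24+ cells it read 9.97, 10.07, 10.93, 9.35 and 10.13 in tumours A to E, against 4.62, 4.80 and 3.51 in pools F to H. In Lin- cells it read 10.33, 10.59, 11.25, 10.32 and 10.76 in tumours, against 8.67, 7.96 and 7.34 in pools. In CD29hiCD24+ cells it read 10.05, 9.99, 9.94, 9.33 and 9.44 in tumours, against 9.96, 9.63 and 10.03 in pools. The normal CD29+CD24+ arrays thus stood alone at the bottom, and the normal CD29hiCD24+ arrays lay inside the range of the tumour arrays of both gates. Tumour CD29+CD24+ cells had 55.0-fold the normal signal (5.78 ± 0.34, adjusted p = 2.06e-11), and tumour E, within the number range of the pools, lay 5.82 above them. In Lin- cells the difference was 2.66 ± 0.34 (adjusted p = 2.61e-06), and in CD29hiCD24+ cells it was -0.12 ± 0.34 with an interval of -0.84 to 0.59. Part of the basal list was high in the same arrays, with a basal mean of 8.73 to 9.15 in tumour CD29+CD24+ cells, against 3.27 to 3.58 in normal ones. Krt5, Krt14, Krt17 and Trp63 averaged 13.03 to 14.64 there, against 2.50 to 3.97 in normal ones. Acta2, Myh11, Cnn1 and Oxtr were not called between these groups. Of the keratinocyte list 8 of 10 were also higher in tumours, with means of 9.47 to 11.41, against 5.49 to 5.62 in pools. Of the fibroblast list 3 of 6 were higher, with means of 4.84 to 6.99, against 3.62 to 3.92. Of all genes 16.4% were higher in this comparison. The part of basal, keratinocyte or fibroblast genes in the Egfr difference was not tested.

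Egfr had 4 kept probe sets, whose calls differed in some comparisons. In CD29+CD24+ cells all 4 were higher in tumours, at 5.78, 5.12, 2.82 and 1.88, and in Lin- cells at 2.66, 2.41, 1.91 and 2.29. The fourth averaged 2.32 and 2.66 in the normal CD29+CD24+ and Lin- cells, in the low band, so its 1.88 and 2.29 are lower limits. In CD29hiCD24+ cells the third of them was also higher (0.91 ± 0.25, adjusted p = 0.00697 over the 24278 probe sets fitted), where the first gave no call. Between normal gates the fourth, which had the lowest signal of the 4, gave 0.67 ± 0.50 and no call, while the others gave 5.56, 5.51 and 1.99. For tumour against normal in that gate difference the 4 gave -5.90, -5.71, -1.91 and -0.82, the last without a call (± 0.64, adjusted p = 0.341). Which Egfr transcripts each probe set reaches was not analysed here.

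Erbb3, the receptor with little kinase activity, was high in every population but the normal CD29hiCD24+ one. In CD29hiCD24+ cells it read 10.98, 10.53, 10.97, 11.51 and 11.10 in tumours A to E, against 8.05, 9.44 and 9.43 in pools F to H. Its CD29+CD24+ signal was 12.44, 11.71, 12.08, 12.25 and 12.25 in tumours, against 12.74, 13 and 12.64 in pools. All tumours lay above all pools in the first gate and below them in the second. The difference was 2.04 ± 0.27 in CD29hiCD24+ cells, a 4.12-fold higher signal (adjusted p = 4.36e-06). In CD29+CD24+ cells it was -0.65 ± 0.27 and did not pass (adjusted p = 0.0535), though it did under quantile normalization, in a fit of these groups alone, and without tumour A or pool F, at adjusted p between 0.0157 and 0.0426. In Lin- cells Erbb3 read 12.01 to 12.83 in tumours and 12.42 to 12.55 in pools (-0.02 ± 0.27, interval -0.57 to 0.54).

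**Figure D3:**
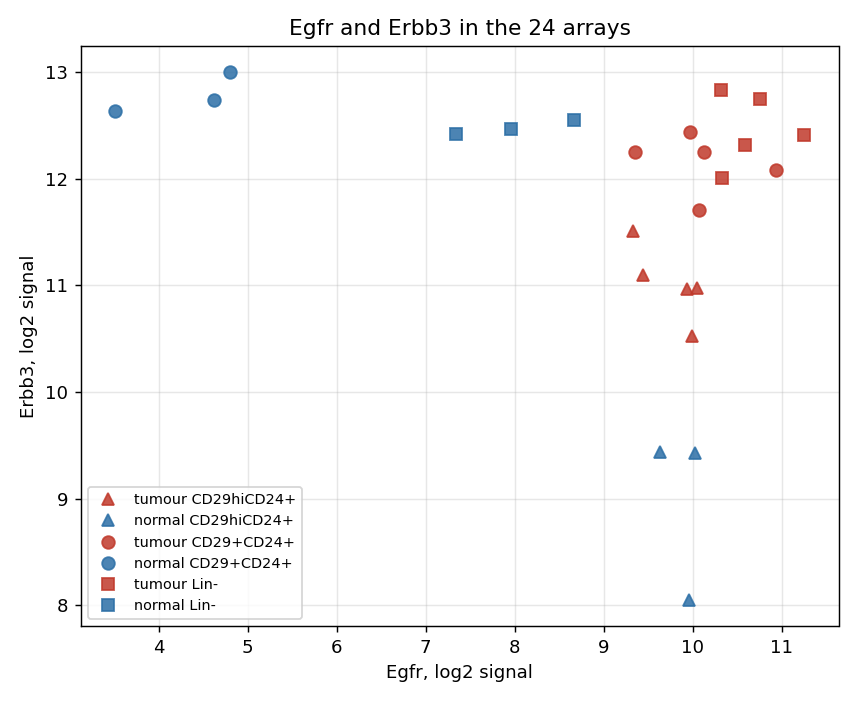
Erbb3 (y axis) against Egfr (x axis), log2 signal of the 24 arrays, 1 point per array. Normal CD29+CD24+ arrays hold high Erbb3 and low Egfr, normal CD29hiCD24+ arrays the reverse, and the 15 tumour arrays lie together with Egfr at 9.33 or above and Erbb3 at 10.53 or above.

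Erbb2, the receptor without a ligand of its own, showed no call between tumours and pools in any population. Its signal ranged from 4.59 to 6.03 in tumour CD29hiCD24+ cells, against 3.51 to 5.26 in normal ones, and from 5.79 to 6.35 in tumour CD29+CD24+ cells, against 6.14 to 6.56 in normal ones. These groups overlapped. The differences were 0.82 ± 0.38 in CD29hiCD24+ (adjusted p = 0.0951), -0.24 ± 0.38 in CD29+CD24+ (adjusted p = 0.665) and 0.10 ± 0.38 in Lin- cells (adjusted p = 0.858). The first did pass under quantile normalization (1.02 ± 0.40, adjusted p = 0.0480), with the number range as a term (1.16 ± 0.46, adjusted p = 0.0470), without tumour D (1.01 ± 0.35, adjusted p = 0.0304) and without pool G (1.19 ± 0.42, adjusted p = 0.0376).

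The second question of the series, the CD29hiCD24+ gate against the CD29+CD24+ gate, was read within each tumour and each pool. For Egfr the difference of the gates was 0.08, -0.08, -0.99, -0.02 and -0.69 in tumours A to E and 5.35, 4.82 and 6.52 in pools F to H. For Ereg it was 1.25, 2.42, 1.91, 1.82 and -0.09 in tumours and 6.49, 6.97 and 8.19 in pools. For Erbb3 it was -1.47, -1.18, -1.11, -0.74 and -1.15 in tumours and -4.69, -3.57 and -3.21 in pools. Egfr thus showed little difference between the gates of tumours A, B and D and was lower in the CD29hiCD24+ gate of tumours C and E. Ereg kept part of its difference in 4 of 5 tumours, and Erbb3 kept part of it in all 5. The fit gave -0.34 ± 0.30 for Egfr in tumour gates (interval -0.96 to 0.28) and 5.56 ± 0.38 in normal gates (47.3-fold, adjusted p = 2.72e-10). It gave 1.46 ± 0.58 for Ereg in tumour gates (adjusted p = 0.157) and 7.22 ± 0.74 in normal gates (149-fold, adjusted p = 1.03e-07). The normal CD29+CD24+ values of Ereg, 2.96 to 3.79, lay just above the low band, so its normal gate difference may be compressed. It gave -1.13 ± 0.23 for Erbb3 in tumour gates (adjusted p = 0.00793), the one member called there, and -3.82 ± 0.30 in normal gates (adjusted p = 1.75e-09).

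**Figure D4:**
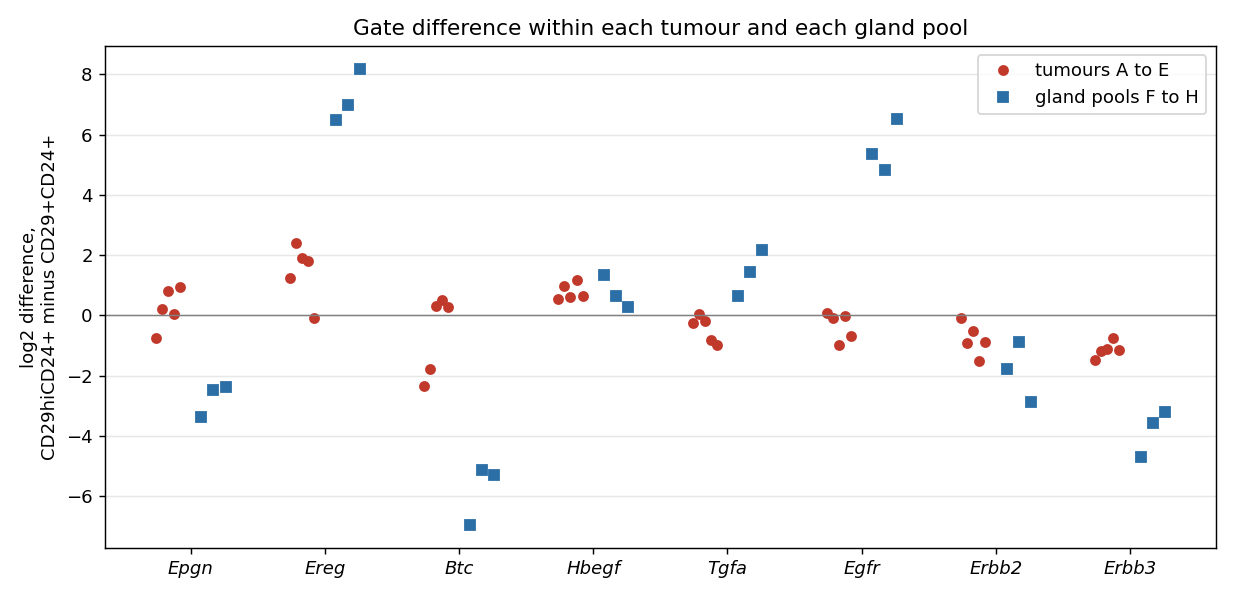
Log2 difference, CD29hiCD24+ minus CD29+CD24+ (y axis), within each tumour (circles, n = 5) and each gland pool (squares, n = 3) for the 8 members. For 6 of the 8 members the tumours and pools do not overlap, and Hbegf and Erbb2 are the exceptions. The share of all genes without overlap was not computed. In limma 42% of all genes passed the test of tumour against normal in this difference.

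For Btc the difference of the gates was -2.34, -1.77, 0.33, 0.53 and 0.29 in tumours A to E and -6.95, -5.14 and -5.29 in pools F to H. For Tgfa it was -0.97 to 0.05 in tumours and 0.65 to 2.18 in pools, and for Epgn it was -0.75 to 0.93 in tumours and -3.36 to -2.38 in pools. The tumours lay apart from the pools for both ligands, and tumour A, at -0.75 for Epgn, leaned the same way as the pools. In the fit Tgfa was higher in the CD29hiCD24+ gate of normal glands (1.43 ± 0.33, adjusted p = 0.00106) and Epgn lower (-2.74 ± 0.44, adjusted p = 3.24e-05). Erbb2 was lower in CD29hiCD24+ cells of all 5 tumours, by -1.50 to -0.09, and of all 3 pools, by -2.88 to -0.88, with no call in tumour gates (-0.78 ± 0.33, adjusted p = 0.186) and a call in normal gates (-1.85 ± 0.42, adjusted p = 0.00113). Hbegf was higher in CD29hiCD24+ cells of all 5 tumours (0.55 to 1.19) and all 3 pools (0.29 to 1.36), at 0.79 ± 0.40 and 0.77 ± 0.52 in the fit, with no call in either. With the description-number range as a term both were called (0.79 ± 0.19, adjusted p = 0.0155, and 0.77 ± 0.25, adjusted p = 0.0148).

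The direct test of tumour against normal in this gate difference gave -5.90 ± 0.48 for Egfr (adjusted p = 9.15e-09), -5.76 ± 0.94 for Ereg (adjusted p = 6.13e-05) and 5.20 ± 0.71 for Btc (adjusted p = 8.35e-06). It gave 3.0 ± 0.56 for Epgn (adjusted p = 0.000250), 2.69 ± 0.38 for Erbb3 (adjusted p = 1.08e-05) and -1.86 ± 0.41 for Tgfa (adjusted p = 0.00111). Each of the 6 had a smaller gate difference in tumours than in the normal gland, or one of the opposite sign. Erbb2 (1.06 ± 0.54, adjusted p = 0.119) and Hbegf (0.02 ± 0.66, adjusted p = 0.985) did not pass. All 8 of the basal list had a lower gate difference in tumours, with a median of -8.23, beside 19.8% of all genes lower and 42% called. Lower too were 6 of 7 endothelial (median -4.84) and 4 of 6 fibroblast genes (median -3.98), with 0 higher in either list. Of 9 luminal genes 1 was higher and 0 lower. The pericyte, leukocyte and keratinocyte lists had 3 of 5, 1 of 7 and 1 of 10 lower and 2, 0 and 2 higher. Lower is the direction of Egfr, Ereg and Tgfa and the opposite of that of Btc, Epgn and Erbb3. The part of these lists in the members' differences was not tested. RNA shortening, read as the 3′ minus the 5′ actin signal, was 2.03 ± 0.30 and 2.06 ± 0.36 in the tumour CD29hiCD24+ and CD29+CD24+ arrays (SD, n = 5), against 2.53 ± 0.35 and 1.61 ± 0.21 in the same normal gates (SD, n = 3), and no member call changed with it as a covariate.

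In order of level, Egfr was highest in tumour Lin- (10.65) and tumour CD29+CD24+ cells (10.09), followed by CD29hiCD24+ cells of pools (9.87) and of tumours (9.75), neighbours that overlapped, and then by normal Lin- (7.99) and normal CD29+CD24+ cells (4.31), which stood apart. Erbb3 had its lowest means in CD29hiCD24+ cells, 11.02 in tumours and 8.97 in pools, which did not overlap. For Tgfa all 3 tumour populations and normal CD29hiCD24+ cells, with means of 10.38 to 10.81, overlapped in a chain, and normal CD29+CD24+ (9.12) and normal Lin- cells (9.04) lay below them. For Hbegf the 3 tumour populations came first, at means of 11.37 to 12.17, and overlapped with normal CD29hiCD24+ cells at 10.43.

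Across the 24 arrays Btc correlated with Epgn at r = 0.80, Egfr with Tgfa at 0.78 and Erbb2 with Erbb3 at 0.75, while Btc ran against Egfr and Tgfa at -0.84 each and Ereg against Erbb3 at -0.73. These arrays come from 8 tumours or pools in 6 groups, so the values describe the groups as much as the genes. Within the tumour groups, with each group's mean removed, Btc against Epgn was at -0.07, Egfr against Tgfa at 0.54, Erbb2 against Erbb3 at -0.05, Btc against Egfr at -0.18, Btc against Tgfa at -0.44 and Ereg against Erbb3 at -0.28. Over the same 15 arrays Ereg against Tgfa was at 0.69 and Epgn against Tgfa at 0.68. The genes whose pattern over the 24 arrays was most like that of a member, by Pearson's r among all tested genes, were Gja1, Adgrg2 and Chst11 for Egfr (0.966, 0.959 and 0.951). For Btc they were Slc7a4, Pls1 and Hid1 (0.983, 0.983 and 0.982), and for Erbb3 they were Grhl1, Pof1b and Usp22 (0.961, 0.954 and 0.938). For Ereg they were Cacna2d1, Cxcl14 and Akap2 (0.939, 0.930 and 0.922), and for Hbegf they were Gpc1, Rnf19b and Susd6 (0.933, 0.907 and 0.906). For Tgfa they were Fbxo11, Ptpn12 and Acvr1 (0.913, 0.913 and 0.900), for Epgn 2210408K08Rik, Mfn2 and Zfp429 (0.912, 0.910 and 0.892), and for Erbb2 Trim16, Pak4 and Rab25 (0.846, 0.843 and 0.839).

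The neuregulins are the ligands of ERBB3 and ERBB4, and of the list of 5 genes Nrg1, Nrg4 and Erbb4 were tested. Nrg1 followed Egfr: its mean was 9.05 in tumour and 8 in normal CD29hiCD24+ cells, and 8.65 in tumour and 3.41 in normal CD29+CD24+ cells. Tumours were higher by 5.24 ± 0.63 in CD29+CD24+ (adjusted p = 8.02e-07) and 3.94 ± 0.63 in Lin- cells (adjusted p = 3.71e-05), and in CD29hiCD24+ cells the difference of 1.06 ± 0.63 did not pass (adjusted p = 0.201). Nrg4 followed Btc in 2 populations, with means of 2.13 in tumour and 7.61 in normal CD29+CD24+ cells and 2.11 in tumour and 7.42 in normal Lin- cells. It was lower in tumours by -5.48 ± 0.23 and -5.31 ± 0.23 (adjusted p = 9.89e-14 and 3.25e-13), with the tumour means in the low band. In CD29hiCD24+ cells Nrg4 was also called lower in tumours (-0.72 ± 0.23, adjusted p = 0.0166), where Btc was not. Its means there, 2.12 in tumours and 2.84 in pools, lay in or at the low band, and the groups overlapped. Erbb4 averaged 3.27 to 3.36 in every group, close to the low band, and was not called in any comparison. Between tumour gates neither Nrg1 (0.40 ± 0.55) nor Nrg4 (-0.01 ± 0.20) passed, and between normal gates Nrg1 was higher in CD29hiCD24+ cells (4.59 ± 0.71) and Nrg4 lower (-4.77 ± 0.26).

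The proteases that free the ligands, and their helpers, made a list of 7, all tested. In CD29hiCD24+ cells 3 were higher in tumours and 1 lower (median 0.94), in CD29+CD24+ cells 1 and 3 (median 0.12), and in Lin- cells 2 and 3 (median -0.05). The shares of all genes higher and lower in the same comparisons were 15.6% and 22.9%, 16.4% and 27.1%, and 13.9% and 26.6%. Adam17, the main sheddase of Tgfa, Hbegf and Ereg, was higher in tumours in all 3, by 1.32 ± 0.20, 0.57 ± 0.20 and 1.18 ± 0.20 (adjusted p = 3.05e-05, 0.0274 and 8.75e-05). Adam9 was lower in tumours in all 3, by -1.43 ± 0.26, -1.52 ± 0.26 and -1.43 ± 0.26. Adam10, the main sheddase of Egf and Btc, was lower in tumour CD29+CD24+ (-1.50 ± 0.22) and Lin- cells (-1.32 ± 0.22), the populations in which Btc was lower, and the rhomboid protease Rhbdl2 was lower there too (-2.78 ± 0.60 and -1.91 ± 0.60). In CD29hiCD24+ cells Rhbdl2 was higher in tumours (1.64 ± 0.60, adjusted p = 0.0360). Rhbdf2, which escorts ADAM17 to the surface, was higher in tumour Lin- cells (1.54 ± 0.43). Between tumour gates 1 of the 7 passed, beside 2.25% of all genes higher and 4.19% called. It was Adam12, higher in CD29hiCD24+ cells by 4.13 ± 0.54 (adjusted p = 0.000217). Its CD29+CD24+ mean of 2.62 lay in the low band, so that the measured difference is a lower limit.

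Genes that restrain ERBB receptors or the ERK pathway made a list of 18, of which 17 were tested, all but Spred3. In CD29hiCD24+ cells, where the first Egfr probe set gave no call between tumours and pools, 10 of the 17 were lower in tumours and 2 higher, with a median of -1.20, beside 22.9% of all genes lower and 15.6% higher. The Sprouty genes Spry4 (-3.08 ± 0.37, adjusted p = 1.31e-06) and Spry1 (-2.23 ± 0.34, adjusted p = 2.31e-05) and Socs5, a suppressor of EGFR signalling (-1.94 ± 0.29, adjusted p = 2.14e-05), were lowest. The ubiquitin ligase Cblc (1.45 ± 0.44, adjusted p = 0.0132) and the phosphatase Dusp4 (1.02 ± 0.34, adjusted p = 0.0219) were higher. Without the CD29hiCD24+ array of pool F, 9 were lower and 0 higher, and both higher calls were also lost without all arrays of pool F, in a fit of these groups alone, and with the actin measure of RNA shortening as a covariate, under which 10 were lower. Endothelial genes fell with them, as all 7 were lower in tumour CD29hiCD24+ cells (range of the mean 2.82 to 3.92, against 7.08 to 9.96 in pools), with the endothelial genes Cdh5, Kdr and Cldn5 in the low band in tumours. Their part in the inhibitors' difference was not tested.

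**Figure D5:**
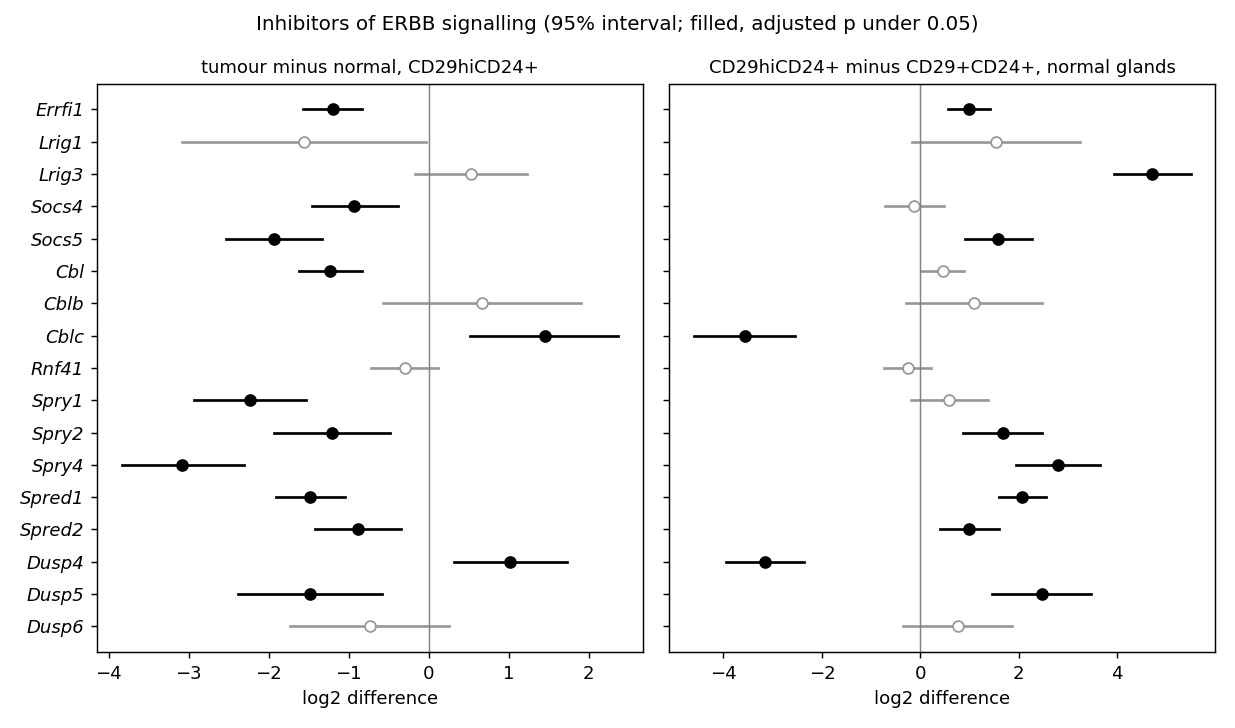
Log2 difference (x axis) with its 95% interval for the 17 tested inhibitors, tumour minus normal CD29hiCD24+ cells on the left and CD29hiCD24+ minus CD29+CD24+ cells of normal glands on the right; filled points passed an adjusted p of 0.05. On the left 10 are lower and 2 higher, on the right 8 are higher and 2 lower, and the sides share the normal CD29hiCD24+ arrays.

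Between tumour gates none of the 17 inhibitors passed in limma (median -0.21), beside 4.19% of all genes, and 1 higher and 2 lower had an unadjusted p under 0.05. Between normal gates 8 were higher in CD29hiCD24+ cells and 2 lower (median 0.99), beside 21.3% and 25.3% of all genes, and with the tumour or pool as a block 10 were higher, Lrig1 and Cbl being added. Lrig3 was higher by at least the measured 4.71 ± 0.38, since its normal CD29+CD24+ mean of 2.56 lay in the low band. Other high ones were Spry4 (2.79 ± 0.41) and the phosphatase Dusp5 (2.47 ± 0.48), and the lower ones were Cblc (-3.57 ± 0.50) and Dusp4 (-3.15 ± 0.38). In CD29+CD24+ cells 5 were higher and 4 lower in tumours (median -0.07), beside 16.4% and 27.1% of all genes, led by Lrig3 (5.07 ± 0.34, against the same low-band mean), Cblb (2.33 ± 0.59) and Dusp5 (1.23 ± 0.43) and by Cblc (-1.91 ± 0.44), Spry1 (-1.57 ± 0.34) and Dusp4 (-1.43 ± 0.34). In Lin- cells 1 was higher, Lrig3 (4.79 ± 0.34), and 3 were lower (median -0.42), beside 13.9% and 26.6% of all genes.

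Of the adaptors and kinases between the receptors and ERK or AKT, 13 of 18 were tested. None was called higher in tumours in any population (1, 1 and 0 at an unadjusted p under 0.05), and 5, 4 and 2 were lower in CD29hiCD24+, CD29+CD24+ and Lin- cells, with medians of 0.10, -0.27 and -0.15. Of all genes 15.6%, 16.4% and 13.9% were higher and 22.9%, 27.1% and 26.6% lower in these populations. The adaptors' lower counts in CD29+CD24+ and Lin- cells were thus near or under the share of all genes lower. The lowest were Sos1 (-1.34 ± 0.24), Braf (-1.20 ± 0.25) and Gab1 (-1.03 ± 0.20) in CD29hiCD24+ cells and Grb7, an adaptor of ERBB receptors, in CD29+CD24+ (-2.83 ± 0.57) and Lin- cells (-2.39 ± 0.57). Grb7 was also lower in normal CD29hiCD24+ than in normal CD29+CD24+ cells (-4.26 ± 0.64), as Erbb2 and Erbb3 were.

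Among 12 genes that ERK signalling is known to induce, 2 were higher and 1 lower in tumour CD29hiCD24+ cells (median 0.14), and 5 were higher and 0 lower both in CD29+CD24+ (median 0.44, with 1 lower at an unadjusted p under 0.05) and in Lin- cells (median 0.41, with 0 lower at that p). Of all genes 15.6%, 16.4% and 13.9% were higher and 22.9%, 27.1% and 26.6% lower in these populations. Phlda1 was higher in tumours in all 3 populations (1.69 ± 0.26, 2.40 ± 0.26 and 2.37 ± 0.26). Epha4, an ephrin receptor, had a pattern like that of Egfr, with means of 10.09 in tumour and 3.82 in normal CD29+CD24+ cells (6.27 ± 0.32, adjusted p = 2.20e-12). Fosl1, a partner of JUN, was higher in tumour CD29+CD24+ cells by 2.56 ± 0.30 (adjusted p = 4.44e-07). In CD29hiCD24+ cells the cell cycle gene Ccnd1 was higher (1.23 ± 0.26) and Myc lower (-2.13 ± 0.44) in tumours. Between tumour gates none passed, beside 4.19% of all genes, with 0 higher and 1 lower at an unadjusted p under 0.05. Between normal gates 5 were higher in CD29hiCD24+ cells and 2 lower, beside 21.3% and 25.3% of all genes. The lower ones were Ccnd1 (-1.10 ± 0.29) and Etv4 (-0.28 ± 0.09), whose means of 2.65 and 2.92 lay around the limit of the low band.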

How the data were processed

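The authors deposited 1 log2 signal per probe set and array, normalised and summarised before deposit. The submitters' processing notes name RMA, GCRMA and Partek, with no version, role or order, and the log2 scale was read from the deposited values (0.489 to 16.06). Groups and letters come from the labels, and 2 titles without a letter were taken as pool H by elimination. Of 45101 probe sets, 34958 had 1 gene name; the filter kept those above the low band, the 40th percentile of the values, on 3 arrays or more, and the one with the highest mean stood for its gene. Each group's mean was fitted over the 24 arrays with limma 3.58.1 (R 4.3.3), with a variance trend, and the code was checked on simulated data. The threshold for a call was an adjusted p of 0.05 (Benjamini-Hochberg, 13485 genes). Values after ± are standard errors of differences unless SD is written, and intervals are 95%.

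All 10 listed members are described. Of each pathway list the counts are given, with up to 3 called genes at each end of a comparison. Each member's 3 most alike genes are named. Members, lists and tests were chosen with earlier results of these data known. Alternatives were no low-value filter, quantile normalization, the replicate block, the range of description numbers, only the groups compared, leaving out each tumour or pool or the CD29hiCD24+ array of pool F, an actin covariate, the mean of a gene's probe sets and no variance trend. By the labels, arrays of 1 letter come from 1 tumour or pool. With group means removed, same-letter arrays correlated at a median r of 0.578 (15 pairs of tumour arrays) and 0.142 (9 pairs of pool arrays), against -0.167 and -0.0705 for different letters. The number of arrays limits the precision.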

Additional observations from a re-analysis of the deposited data

Results flagged for a closer look

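Egf stood out in the arrays of 1 tumour. In each tumour population tumour C lay further from its nearest neighbour than Dixon's 95% limit allows: at 7.15 in CD29hiCD24+ cells, against 2.43 to 2.58 in the other 4 tumours, at 3.65 in CD29+CD24+ cells, against 2.42 to 2.52, and at 2.68 in Lin- cells, against 2.43 to 2.48. The last of these is still within the low band. The 9 members with a probe set were examined in the 3 tumour populations, 27 sets of arrays, and these 3 were the ones picked out. Chance alone picks out about 5% of such sets, and the 3 arrays come from 1 tumour.

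The difference between the CD29hiCD24+ and CD29+CD24+ gates was not the same in tumours and normal glands for 6 members, by the test of that difference in limma. On the log2 scale, tumour minus normal, it was -5.90 for Egfr, -5.76 for Ereg, 5.20 for Btc, 3.0 for Epgn, 2.69 for Erbb3 and -1.86 for Tgfa. Of all genes tested, 42% passed the same test.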

How the results depend on the processing

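Of the members' differences recomputed under the alternatives, 705 kept their side of the threshold, 12 lost a call, 11 gained one and 0 changed sign while called. The replicate block, the missing low-value filter, the actin covariate, the mean of probe sets and the fit without a variance trend changed no member call. Calls lost were those of Epgn in CD29hiCD24+ cells (adjusted p 0.0531 to 0.130 over 8 alternatives), Hbegf in both gates with the description-number range, and Ereg in CD29+CD24+ cells with that range (adjusted p = 0.0992) or without pool H. With the range as a term, members higher in tumour CD29+CD24+ cells numbered 2 in place of 4, and members higher in the CD29hiCD24+ gate of tumours 1 (Hbegf, adjusted p = 0.0155) in place of 0; Hbegf was also called between normal gates (adjusted p = 0.0148). Erbb2 gained a call in the difference between tissues without pool G (adjusted p = 0.0495).

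The count of all genes called between tumour gates, 565, was the least stable: 1817 with the replicate block, in which the arrays are paired by letter, 1263 with the description-number range, 149 in a fit of these groups alone and 207 to 565 without 1 tumour (207 without B, 245 without E, 297 without A, 340 without C). The cause was not tested. Quantile normalization moved the share of higher calls from 40.5% to 53.7% in tumour against normal CD29hiCD24+ cells (2882 higher and 2483 lower) and from 53.8% to 69.5% between tumour gates (491 and 215), and the median gate difference between tissues from 0.04 to 0.15. Differences that reach into the low band, as those of Nrg4, Lrig3, Adam12 and the fourth Egfr probe set do, are compressed. Those of Btc, most of whose low values lay just above the low band, may be compressed too. So may those of Ereg against normal CD29+CD24+ cells, also just above it. With 3 pools against 5 tumours, a difference of 1 on the log2 scale may go uncalled.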
